A study of Mus musculus with 6 samples.

Results

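The ER folding and integrated stress response module is a set of 34 mouse genes: 14 genes of the ATF4 type, which are known as ATF4 itself, its targets or its partners, 17 genes for protein folding, quality control and disposal in the endoplasmic reticulum (ER), and 3 ER stress sensors. Members were taken from the table by gene symbol, and each of the 34 symbols had exactly 1 row among the 29018 genes of the deposited table. All 34 had enough counts to be tested. Poly(A) RNA was sequenced from osteoblasts, the bone-forming cells, which had been grown from the skull roof (calvaria) of neonates and put through osteogenic differentiation in culture. There were 3 libraries of the NDR1 KO genotype (KO) and 3 of the WT genotype (WT). NDR1 is a protein kinase of the NDR family, and its gene is Stk38. The labels do not give the design of the KO allele, the strain or sex of the mice, the time in osteogenic medium, or whether libraries came from separate animals or cultures, so the spread behind each p-value is that of these libraries and may be technical.

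The ER folds the proteins that a cell secretes. When unfolded protein builds up there, the sensors IRE1, ATF6 and PERK start the unfolded protein response: IRE1 splices Xbp1 mRNA, ATF6 is cut to release a transcription factor, and both raise chaperone and disposal genes. PERK phosphorylates the translation factor eIF2α, as do the kinases GCN2, HRI and PKR, which answer to amino acid shortage, low heme or mitochondrial stress, and double-stranded RNA. Phosphorylated eIF2α slows translation in general but favours that of ATF4, which drives genes for amino acid supply and stress adaptation; this shared route is the integrated stress response. In osteoblasts, which secrete large amounts of type I collagen, ATF4 is known as a regulator of late differentiation and of amino acid import.

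Counts summed to between 61461870 and 76159034 in the KO libraries and to between 66308530 and 68395991 in the WT libraries. Levels are given as CPM, which are counts rescaled by library total and TMM factor, and changes as log2 KO over WT, so a positive value means more in KO. A gene was said to rise or fall where edgeR's two-sided quasi-likelihood test, fitted on 18221 genes, gave a p under 0.05 after Benjamini-Hochberg adjustment. Of these, 22.9% passed, 11.2% higher and 11.7% lower in KO, and the median log2 change was 0.00. Without TMM scaling 63.0% of all calls were higher in KO, against 49.0% with it. Stk38 had 50.3, 47.9 and 52.5 CPM in the KO libraries, against 73.1, 77.4 and 79.5 CPM in the WT libraries, -34.4% (log2 change -0.61 ± 0.05 (SE), adjusted p = 8.1e-06), so its mRNA was still well detected in the KO libraries. Osteoblast markers summed to 42510 to 44840 CPM in the KO libraries and to 59720 to 61550 CPM in the WT libraries. Most of that sum was type I collagen, Col1a1 and Col1a2. Of 9 markers, 5 were lower and none higher. The log2 change was above 0 for 2, Sp7 at 0.15 and Ibsp at 0.39, and DESeq2 called 1 marker higher. Col1a1 was at 23040 ± 672 CPM in KO and 31680 ± 674 CPM in WT (SD, n = 3 each). All 12 macrophage markers were higher in KO and summed to 986.5 to 1097 CPM in the KO libraries, against 388.6 to 512.5 CPM in the WT libraries. Adipocyte markers summed to 128.3 to 137.3 CPM in KO and to 270.4 to 280.7 CPM in WT, and osteoclast markers, mostly Mmp9 (3.72 ± 0.593 CPM in KO and 144 ± 7.76 CPM in WT) and Ctsk (218 ± 3.77 CPM in KO and 298 ± 6.35 CPM in WT), to 236.0 to 240.3 CPM in KO and to 454.6 to 460.2 CPM in WT. Most of the adipocyte sum was Lpl, at 121.5 ± 3.98 CPM in KO and 250.8 ± 5.48 CPM in WT. Of the 6 adipocyte markers 5 fell and Pparg did not pass. Of the 6 osteoclast markers 2 fell, none rose and 3 were above 0 in their log2 change. Endothelial markers summed to 0.67 to 1.55 CPM in KO and to 1.75 to 2.13 CPM in WT, where 1 of 3 fell. Skeletal muscle markers summed to 5.17 to 6.18 CPM in KO and to 8.84 to 11.1 CPM in WT, where 2 of 6 tested fell. Ckm of muscle and Cidec of adipocytes were at 0 in all KO libraries, and no macrophage marker was at 0 in a genotype.

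Short DNA elements through which ATF4 and the ER sensors are known to act were looked for in the promoters of the module, and 5 promoters are shown: those of a pair of ATF4-type genes that rose, of the main ER chaperone gene, of the folding gene that rose, and of the member with both kinds of element. Of 34 members, 31 had a promoter window in RefSeq (build GRCm38.p6, 250 bases before to 50 bases after the start of the gene). In each window both strands were searched for the ATF4 site known as CARE (TGATGNAA), the ER stress elements ERSE (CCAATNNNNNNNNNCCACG) and ERSE-II (ATTGGNCCACG), the UPRE core (TGACGTGG) and the CRE (TGACGTCA). CARE stood in the windows of 4 of 14 ATF4-type genes (Atf3, Chac1, Trib3 and Asns) and in 1 of 15 ER folding genes (Herpud1), while 3.97% of all 32851 windows held it. ERSE stood in the windows of 7 of 15 ER folding genes (Hspa5, Calr, Hsp90b1, Canx, Pdia6, Dnajc3 and Creld2), with 2 sites in that of Hsp90b1, and in 0 of 14 ATF4-type genes, while 0.119% of all windows held it. ERSE-II was found in Herpud1 alone among the members, with 0.0365% of all windows. The UPRE core was in none of the members' windows (0.676% of all), and the CRE was in that of Ppp1r15a (1.79% of all). The counts of members are of genes, while the shares are of all windows. Members were listed as genes already known to belong to these responses, so the counts beside the shares are descriptive. ERSE and ERSE-II end in the same letters, and UPRE and CRE begin alike, but no 2 matched sites in the members overlapped. Of the ATF4-type genes with CARE, Asns and Chac1 rose, while Atf3 and Trib3 did not pass the test. Ddit3, Atf5, Psat1, Mthfd2 and Sesn2 rose with no CARE in the window. Of the ER folding genes with ERSE, Canx alone passed. Whether an element goes with a change was not tested. A match is a run of letters and does not show that a factor binds there, and a window without one says nothing about the rest of the gene.

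The 250 bases before each start are printed on the gene's own strand, 5′ to 3′, with the letters of CARE, ERSE and ERSE-II in capitals and the free bases inside ERSE and ERSE-II in lower case. Asns has its CARE 23 to 16 bases before the start, and Chac1 has one on the opposite strand 193 to 186 bases before it. Hspa5 and Canx each hold an ERSE, 65 to 47 and 145 to 127 bases before the start. Herpud1 is the member with both kinds of element: a CARE on the opposite strand 112 to 105 bases before the start and an ERSE-II 52 to 42 bases before it.
Asns, chr6:7693210-7693459, minus strand: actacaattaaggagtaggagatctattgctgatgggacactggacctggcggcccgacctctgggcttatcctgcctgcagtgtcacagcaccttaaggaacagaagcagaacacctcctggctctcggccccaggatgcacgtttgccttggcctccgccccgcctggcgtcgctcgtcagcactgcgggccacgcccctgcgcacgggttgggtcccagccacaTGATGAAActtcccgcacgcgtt
Chac1, chr2:119350992-119351241, plus strand: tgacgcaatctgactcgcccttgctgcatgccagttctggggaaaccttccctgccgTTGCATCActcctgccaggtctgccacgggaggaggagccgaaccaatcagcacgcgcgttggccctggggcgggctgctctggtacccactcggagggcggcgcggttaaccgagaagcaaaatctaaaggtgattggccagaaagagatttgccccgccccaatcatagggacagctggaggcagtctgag
Hspa5, chr2:34771840-34772089, plus strand: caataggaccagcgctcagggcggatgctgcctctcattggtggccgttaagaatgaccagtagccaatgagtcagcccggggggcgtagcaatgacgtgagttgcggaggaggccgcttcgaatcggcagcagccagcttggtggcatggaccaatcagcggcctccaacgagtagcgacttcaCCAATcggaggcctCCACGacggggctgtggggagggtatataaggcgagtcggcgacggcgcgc
Canx, chr11:50325674-50325923, minus strand: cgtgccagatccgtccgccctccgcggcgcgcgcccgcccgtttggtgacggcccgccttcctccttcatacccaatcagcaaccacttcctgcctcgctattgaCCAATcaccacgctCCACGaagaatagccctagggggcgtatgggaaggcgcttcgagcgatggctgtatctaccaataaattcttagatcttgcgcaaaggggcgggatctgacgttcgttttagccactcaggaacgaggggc
Herpud1, chr8:94386179-94386428, plus strand: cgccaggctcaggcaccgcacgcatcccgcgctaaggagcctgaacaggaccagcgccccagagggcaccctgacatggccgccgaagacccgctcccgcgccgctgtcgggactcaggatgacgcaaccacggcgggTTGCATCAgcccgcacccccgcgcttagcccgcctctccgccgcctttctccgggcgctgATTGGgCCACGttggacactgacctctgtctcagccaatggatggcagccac

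The ATF4-type genes were the part of the module that stood higher in KO. Of 14, 7 rose (Ddit3, Atf5, Asns, Chac1, Psat1, Mthfd2 and Sesn2), none fell and 7 did not pass the test, while 11.2% of all genes tested rose. The members were chosen with earlier results of these data known, so comparisons with all genes are descriptive. At an unadjusted p under 0.05 the counts were 9 higher and 0 lower, and with DESeq2 they were 7 and 0. The log2 change was above 0 for all 14, with a median of 0.22 and a range of 0.08 to 0.88, beside a median of 0.00 over all genes. All 3 KO values lay above all 3 WT values for 10 of 14, whereas 19.2% of all genes tested had that order, and the other 4 overlapped. Summed over the 14 genes, the level was 647.8, 622.2 and 633.7 CPM in the KO libraries and 539.9, 555.0 and 528.5 CPM in the WT libraries. These are bulk cultures, in which fewer cells of a type and less RNA per cell cannot be told apart, and the macrophage marker sum, at 986.5 to 1097 CPM in KO and 388.6 to 512.5 CPM in WT, moved with genotype too. Its part in the changes of the ATF4-type genes, and of the other members, was not tested.

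**Figure D1:**
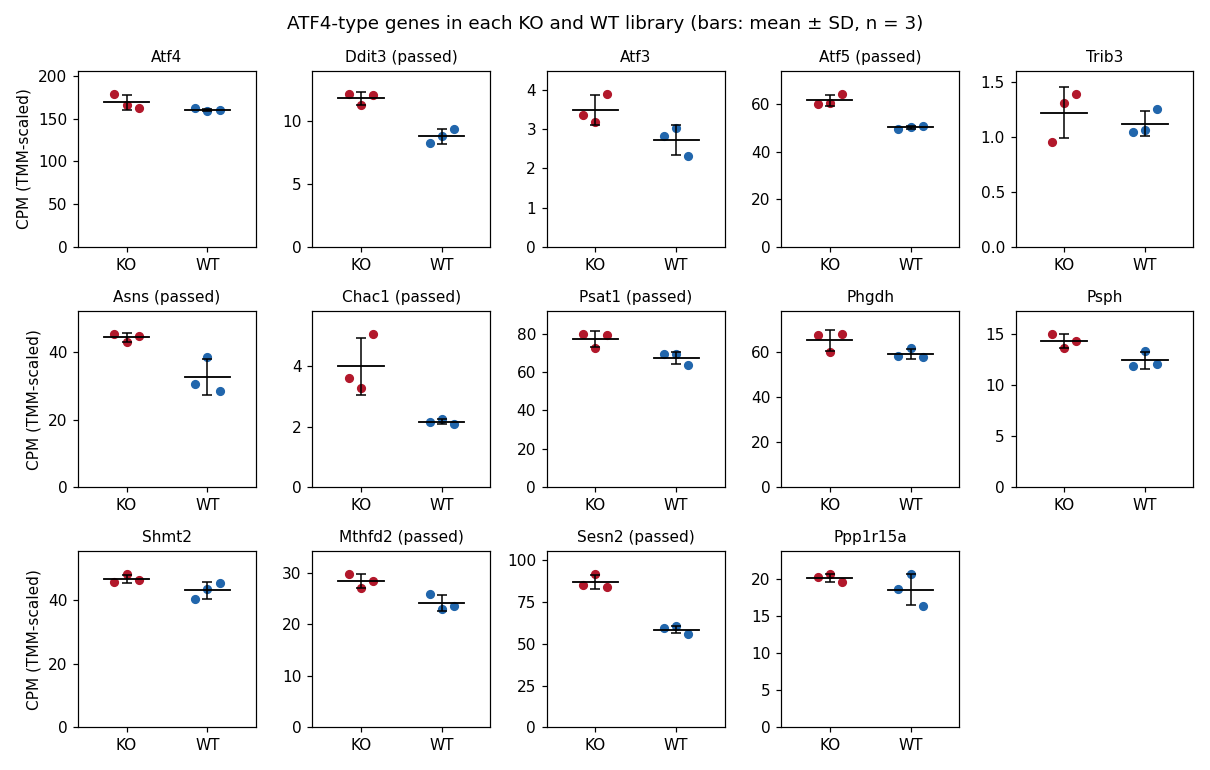
Level of each of the 14 ATF4-type genes in every library, in CPM after TMM scaling on linear axes from 0, with KO libraries left of WT libraries; points are libraries and bars the mean ± SD (n = 3 each). For the 7 genes marked as passed the KO points all lie above the WT points, as for Sesn2 at 84.1 to 91.7 CPM in KO and 55.9 to 60.4 CPM in WT.

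Among the transcription factors, Atf4 itself did not pass the test. It had 179, 166 and 162 CPM in the KO libraries, against 162, 159 and 159.8 CPM in the WT libraries (log2 change 0.08 ± 0.04 (SE), adjusted p = 0.197). The lowest KO library met the highest WT library at 162.0 CPM, so the groups touched, and the 95% interval of the change, -0.01 to 0.16, includes no change. Atf4 is controlled mostly by translation, and its protein was not measured here. Ddit3, which encodes CHOP, a factor linked to cell death under lasting stress, had 12.2, 11.2 and 12.1 CPM in the KO libraries, against 8.23, 8.79 and 9.37 CPM in the WT libraries. It rose (log2 change 0.43 ± 0.09 (SE), adjusted p = 0.00505), by 34.5%, with no overlap between the groups. Atf5, a close relative of ATF4 that is translated by the same mechanism, had 59.8, 60.5 and 64.3 CPM in the KO libraries, against 49.6, 50.5 and 50.7 CPM in the WT libraries, and rose by 22.4% (log2 change 0.29 ± 0.04 (SE), adjusted p = 0.000668). The groups were well apart, and the WT libraries lay close together. Atf3, a stress-induced repressor, was much less abundant, with 3.36, 3.17 and 3.90 CPM in the KO libraries, against 2.83, 3.03 and 2.31 CPM in the WT libraries. The KO libraries were all above the WT libraries, but the change missed the threshold (log2 change 0.35 ± 0.17 (SE), adjusted p = 0.188). Ddit3 overlaps Mars1 and Atf5 overlaps Nup62 on the opposite strand, and whether counting used strand is not stated. Neither neighbour passed the test, at log2 changes of 0.10 for Mars1 and 0.06 for Nup62. Mars1 was far more abundant than Ddit3, at 79.1 ± 1.13 CPM in KO and 73.8 ± 4.03 CPM in WT (SD, n = 3 each). Nup62 was near the level of Atf5, at 61.1 ± 3.14 CPM in KO and 58.6 ± 2.96 CPM in WT. Whether reads of either neighbour add to the counts of Ddit3 or Atf5 was not tested.

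The enzymes of amino acid and one-carbon supply were all above 0 in their change, and 3 of 6 rose, beside 11.2% of all genes. Asns makes asparagine and is a classical ATF4 target. It had 45.4, 43.0 and 44.7 CPM in the KO libraries, against 30.6, 38.6 and 28.4 CPM in the WT libraries, and rose by 36.4% (log2 change 0.45 ± 0.10 (SE), adjusted p = 0.00706). The KO libraries were close together, with a coefficient of variation of 2.81%, while the WT libraries varied by 16.5% as WT replicate 2 stood above the other WT libraries, though still below each KO library. Serine is made from a glycolytic intermediate by Phgdh, Psat1 and Psph in turn. Psat1, the aminotransferase of that path, had 79.9, 72.6 and 79.5 CPM in the KO libraries, against 69.4, 69.2 and 63.5 CPM in the WT libraries and rose (log2 change 0.20 ± 0.05 (SE), adjusted p = 0.0166). Phgdh, the first enzyme, had 67.7, 59.9 and 68.1 CPM in the KO libraries, against 58.1, 61.7 and 57.8 CPM in the WT libraries, and did not pass (log2 change 0.14 ± 0.06 (SE), adjusted p = 0.103). Its groups overlapped, with KO replicate 2 among the WT libraries. Psph, the last enzyme, had 15.1, 13.7 and 14.4 CPM in the KO libraries, against 11.9, 13.4 and 12.1 CPM in the WT libraries and missed the threshold with no overlap between groups (log2 change 0.21 ± 0.08 (SE), adjusted p = 0.0931). Psph overlaps Cct6a on the opposite strand, a chaperonin gene with a far higher count and a log2 change of -0.00.

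Mitochondrial one-carbon enzymes followed with small changes. Mthfd2, which oxidises methylene-tetrahydrofolate in mitochondria, had 29.8, 27.1 and 28.5 CPM in the KO libraries, against 25.9, 23.0 and 23.6 CPM in the WT libraries and rose (log2 change 0.24 ± 0.07 (SE), adjusted p = 0.0247). Shmt2, which splits serine to feed that path, had 45.5, 48.0 and 46.2 CPM in the KO libraries, against 40.1, 43.3 and 45.3 CPM in the WT libraries, and did not pass (log2 change 0.12 ± 0.05 (SE), adjusted p = 0.16). Every KO library was above every WT library for both enzymes, but for Shmt2 the gap between the nearest libraries was small. The calls of Psat1 and Mthfd2 depended on single libraries. The adjusted p of Psat1 was 0.0736 without KO replicate 1, 0.0576 without KO replicate 3 and 0.0661 without WT replicate 3. That of Mthfd2 was 0.108 without KO replicate 1, 0.062 without KO replicate 3, 0.0852 without WT replicate 2 and 0.0847 without WT replicate 3. Phgdh in turn passed without KO replicate 2, at an adjusted p of 0.0181.

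The stress effectors held the changes of lowest p and of greatest size. Sesn2, or sestrin 2, dampens mTORC1 signalling when leucine is short. It had 85.1, 91.7 and 84.1 CPM in the KO libraries, against 59.4, 60.4 and 55.9 CPM in the WT libraries and rose by 48.4% (log2 change 0.57 ± 0.05 (SE), adjusted p = 1.03e-05), the smallest p of the 34 members. Its lowest KO library was far above its highest WT library. Chac1, an enzyme that degrades glutathione and an ATF4 and CHOP target, had 3.63, 3.29 and 5.07 CPM in the KO libraries, against 2.16, 2.25 and 2.10 CPM in the WT libraries. It rose 1.84-fold (log2 change 0.88 ± 0.19 (SE), adjusted p = 0.00786), the greatest fold of the module, at a low level. Its WT libraries agreed to a coefficient of variation of 3.57%, and its KO libraries varied by 23.7% as KO replicate 3 was higher than the other KO libraries. On the log2(FPKM + 1) scale, which understates low genes, its change was 0.57. Trib3, a pseudokinase that restrains ATF4 signalling, stayed near 1 CPM, with 0.956, 1.31 and 1.39 CPM in the KO libraries, against 1.04, 1.07 and 1.25 CPM in the WT libraries, and did not pass (log2 change 0.12 ± 0.25 (SE), adjusted p = 0.797). Its interval of -0.45 to 0.69 covers changes in both directions. Ppp1r15a encodes GADD34, which brings a phosphatase to eIF2α and ends the response. It had 20.4, 20.7 and 19.6 CPM in the KO libraries, against 18.8, 20.7 and 16.4 CPM in the WT libraries, overlapped between genotypes and did not pass (log2 change 0.12 ± 0.08 (SE), adjusted p = 0.38).

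**Figure D2:**
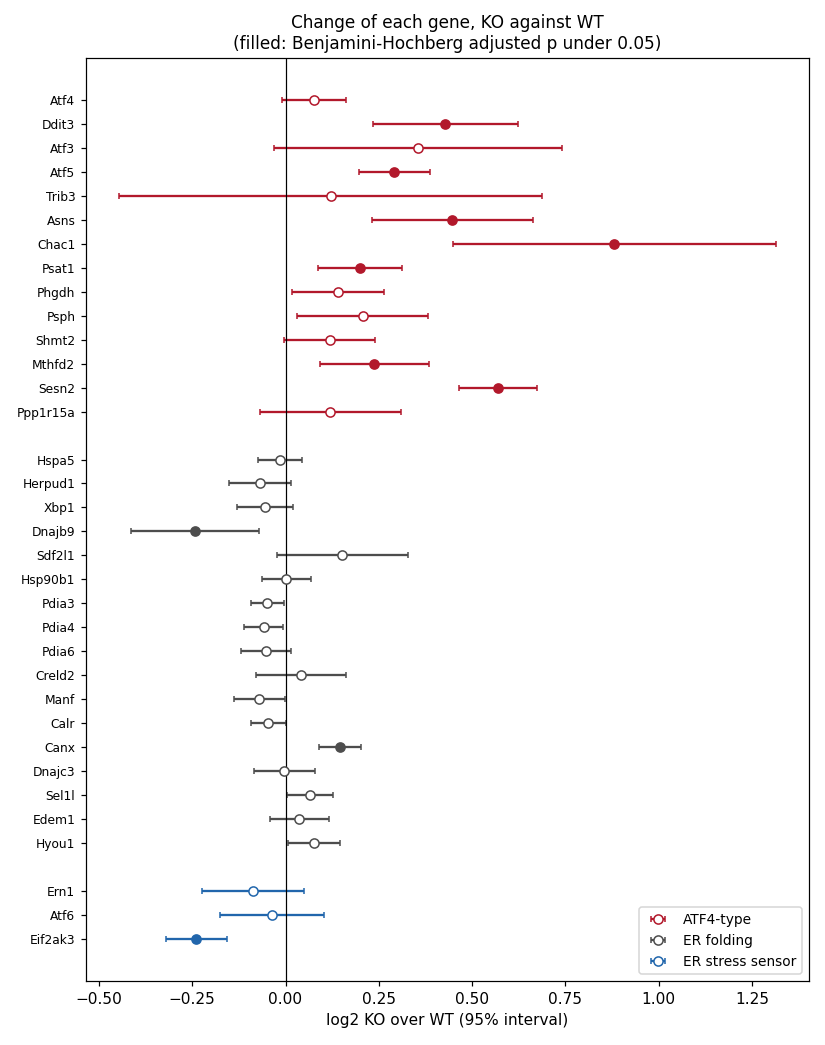
Log2 change (KO over WT) of each of the 34 members with its 95% interval from the edgeR fit, grouped as ATF4-type, ER folding and ER stress sensor; filled points passed at an adjusted p under 0.05, and the vertical line marks no change. All 14 ATF4-type points lie right of the line, at 0.08 to 0.88, while the 17 ER folding points lie on both sides of it, between -0.24 and 0.15.

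The ER folding genes lay close to no change as a group, with calls in both directions. Of 17, 1 rose (Canx), 1 fell (Dnajb9) and 15 did not pass, beside 11.2% of all genes that rose and 11.7% that fell. At an unadjusted p under 0.05 the counts were 3 higher and 4 lower, and DESeq2 called 1 and 1. The median log2 change was -0.02, and the range was -0.24 to 0.15. For 14 of 17 genes the change was under 0.1 in size, beside 6274 of all 18221 genes tested. The median size over all genes tested was 0.17. KO values lay above all WT values for 3 of 17 and below all of them for 5 of 17, beside 19.2% and 19.1% of all genes. The summed level was 6518, 6557 and 6639 CPM in the KO libraries and 6581, 6585 and 6737 CPM in the WT libraries, so the sums overlapped. These are abundant mRNAs with narrow errors. The median SE of the log2 change was 0.03 for the folding genes, 0.07 for the ATF4-type genes and 0.10 over all genes tested. Without TMM scaling, and also in the limma fits on log2(FPKM + 1) and log2(FPKM + 0.1) that left out low genes, the counts were 3 higher and 0 lower, as Sel1l and Hyou1 then passed and Dnajb9 did not.

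Hspa5, which encodes BiP, the main chaperone of the ER and the usual readout of the unfolded protein response, had 873, 881 and 889 CPM in the KO libraries, against 863, 886 and 922 CPM in the WT libraries (log2 change -0.02 ± 0.03 (SE), adjusted p = 0.745). The groups overlapped, with the KO libraries inside the span of the WT libraries, and the 95% interval of the change was -0.07 to 0.04. Hsp90b1, the ER form of HSP90, had 971, 1012 and 999 CPM in the KO libraries, against 1000, 952 and 1023 CPM in the WT libraries, again overlapping (log2 change 0.00 ± 0.03 (SE), adjusted p = 0.965). Hyou1, an ER chaperone that exchanges nucleotide on BiP, was slightly above the WT libraries in each KO library, at 159 ± 3.98 CPM in KO and 151 ± 3.02 CPM in WT (SD, n = 3 each), and did not pass (log2 change 0.08 ± 0.03 (SE), adjusted p = 0.109). The BiP partners followed no common direction. Dnajc3, which delivers substrates to BiP, was at a log2 change of -0.00 (adjusted p = 0.967), and Sdf2l1, a cofactor of ER chaperones, at 0.15 (adjusted p = 0.215). Dnajb9, or ERdj4, a cochaperone that helps in disposal and represses IRE1, had 29.0, 23.8 and 27.6 CPM in the KO libraries, against 31.9, 30.2 and 33.1 CPM in the WT libraries. All KO libraries were below all WT libraries and Dnajb9 fell by 15.5% (log2 change -0.24 ± 0.08 (SE), adjusted p = 0.0456). That call was lost under 10 of 14 alternatives, among them leaving out KO replicate 2, at an adjusted p of 0.135, KO replicate 3, at 0.0678, or WT replicate 1, 2 or 3, at adjusted p of 0.114, 0.0565 and 0.152.

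The lectin chaperones are listed together, and 1 of 2 passed, beside 22.9% of all genes tested. Canx, or calnexin, the membrane-bound lectin that holds new glycoproteins, had 498, 506 and 512 CPM in the KO libraries, against 449, 454 and 468 CPM in the WT libraries. It rose by 10.7% (log2 change 0.15 ± 0.02 (SE), adjusted p = 0.00173), with a clear gap between the groups. Calr, or calreticulin, its soluble counterpart and the most abundant member per length at 439.5 ± 5.25 FPKM in KO against 438 ± 6.79 FPKM in WT, had 1319, 1298 and 1347 CPM in the KO libraries, against 1342, 1377 and 1372 CPM in the WT libraries, and did not pass (log2 change -0.05 ± 0.02 (SE), adjusted p = 0.166). Whether the changes of Canx and Calr differ was not tested. The disulfide isomerases Pdia3, Pdia4 and Pdia6 had log2 changes of -0.05, -0.06 and -0.05, with adjusted p of 0.11, 0.112 and 0.276. For Pdia3 and Pdia4 each KO library was below each WT library, by small steps: Pdia3 had 1067, 1069 and 1080 CPM in the KO libraries, against 1127, 1097 and 1104 CPM in the WT libraries. Per length Pdia3 was at 327 ± 0.656 FPKM in KO against 327 ± 4.25 FPKM in WT, a scale without TMM on which the groups were level.

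Genes for disposal and for stress-induced secretion did not pass. Herpud1, a part of the ER-associated degradation (ERAD) complex whose promoter holds both an ATF4 site and an ERSE-II, had 73.5, 69.8 and 74.1 CPM in the KO libraries, against 76.2, 75.7 and 76.0 CPM in the WT libraries (log2 change -0.07 ± 0.04 (SE), adjusted p = 0.235). All its KO libraries were below its WT libraries, by little. Sel1l, the adaptor of the ERAD ubiquitin ligase, was at 227 ± 5.13 CPM in KO and 217 ± 3.46 CPM in WT (SD, n = 3 each; log2 change 0.07 ± 0.03 (SE), adjusted p = 0.132). Edem1, which draws misfolded glycoproteins to disposal, was at a log2 change of 0.04 (adjusted p = 0.537). Manf and Creld2, both small ER proteins that are secreted under stress, were at -0.07 (adjusted p = 0.139) and 0.04 (adjusted p = 0.662). Manf overlaps on the same strand with the annotated gene Rbm15b, which fell by 0.22 on the log2 scale (adjusted p = 0.00187), so reads of the pair may be split between them. Manf also overlaps Dcaf1 on the opposite strand, a gene that did not pass (log2 change -0.00, adjusted p = 0.971). Xbp1, the target of IRE1 splicing, had 118, 118 and 119.7 CPM in the KO libraries, against 118, 126 and 126 CPM in the WT libraries, and its total mRNA did not pass (log2 change -0.06 ± 0.03 (SE), adjusted p = 0.294). Spliced and unspliced forms are not separated in the table.

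**Figure D3:**
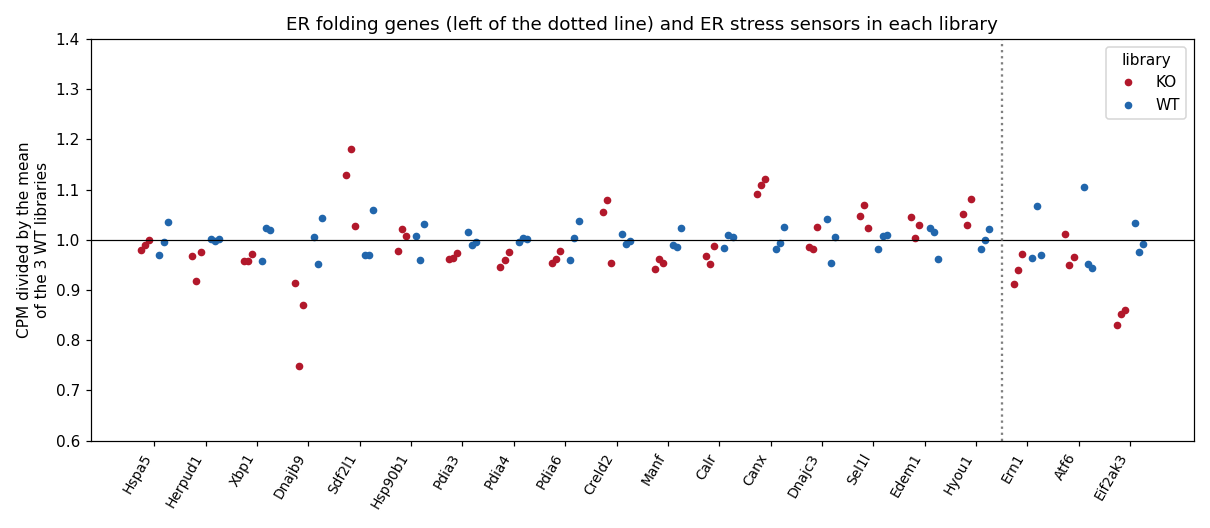
Level of the 17 ER folding genes and the 3 sensors in every library, as CPM divided by the mean CPM of the WT libraries for that gene, with KO and WT libraries in different colours and 1 marking the WT mean. The genotypes overlap for 9 of 17 folding genes and 2 of 3 sensors; the KO points of Canx lie above the WT points, and those of Dnajb9 and Eif2ak3 below them.

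Of the 3 sensors, 1 fell, none rose and 2 did not pass, beside 11.7% of all genes that fell. Eif2ak3, which encodes the eIF2α kinase PERK, had 67.0, 68.8 and 69.3 CPM in the KO libraries, against 83.3, 78.8 and 79.9 CPM in the WT libraries. It fell by 15.3% (log2 change -0.24 ± 0.04 (SE), adjusted p = 0.000947), and every KO library was well below every WT library. Ern1, which encodes IRE1α, had 25.1, 25.9 and 26.8 CPM in the KO libraries, against 26.6, 29.4 and 26.8 CPM in the WT libraries, and did not pass (log2 change -0.09 ± 0.06 (SE), adjusted p = 0.374). Atf6 had 58.4, 54.9 and 55.7 CPM in the KO libraries, against 63.8, 55.0 and 54.4 CPM in the WT libraries, and did not pass either (log2 change -0.04 ± 0.06 (SE), adjusted p = 0.755). For both genes the groups overlapped, and 1 WT library, replicate 2 for Ern1 and replicate 1 for Atf6, stood above all others. Per length the sensors were scarce beside the chaperones: Eif2ak3 was at 10.9 ± 0.164 FPKM in KO against 12.4 ± 0.343 FPKM in WT, Atf6 at 5.84 ± 0.205 FPKM in KO against 5.79 ± 0.520 FPKM in WT and Ern1 at 3.04 ± 0.0807 FPKM in KO against 3.12 ± 0.184 FPKM in WT. Activity of the sensors, which rests on phosphorylation, splicing or cleavage, was not measured.

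The span of levels within the module was wide, and genes that passed were found at low and at high levels. Per length, Calr, Pdia3, Hsp90b1 and Hspa5 had the highest levels, at 439.5, 327, 236 and 199.6 FPKM on average in the KO libraries and 438, 327, 228 and 195 FPKM in the WT libraries. Atf4 was the most abundant ATF4-type mRNA per length, at 68.7 ± 3.97 FPKM in KO against 62.9 ± 0.544 FPKM in WT. Sesn2 was at 24.0 ± 1.27 FPKM in KO against 15.6 ± 0.638 FPKM in WT, Chac1 at 2.33 ± 0.539 FPKM in KO against 1.22 ± 0.0441 FPKM in WT and Trib3, the scarcest member, at 0.545 ± 0.0994 FPKM in KO against 0.481 ± 0.0464 FPKM in WT. Over the ATF4-type genes the median level was 11.1 FPKM in KO, against 8.70 FPKM in WT. Over the folding genes it was 31.2 FPKM in KO, against 30.2 FPKM in WT. Under all 14 alternatives to the processing that were run, Ddit3, Atf5, Asns, Chac1, Sesn2, Canx and Eif2ak3 kept their calls, and no called member changed direction.

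**Figure D4:**
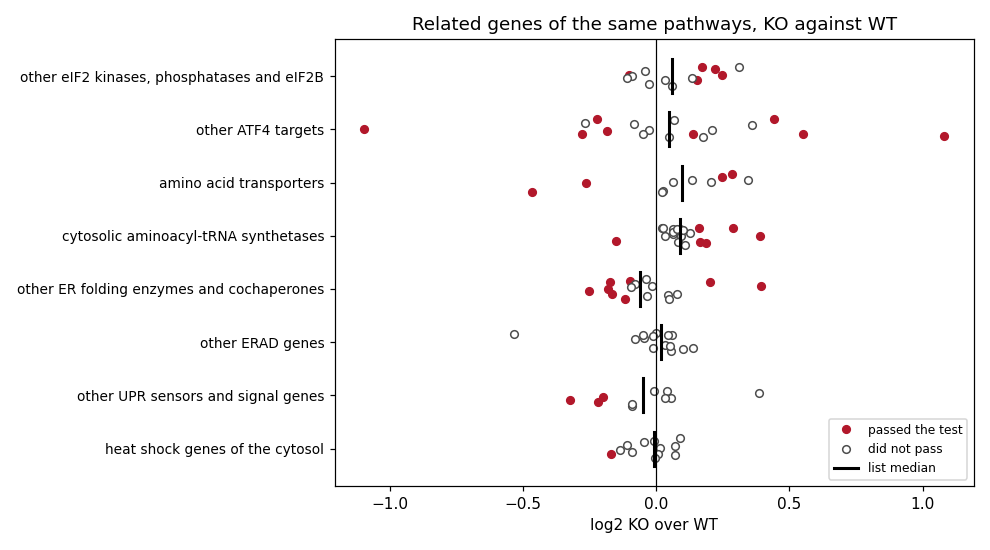
Log2 change (KO over WT) of every tested gene in 8 lists related to the module, 1 point per gene, with a bar at the list's median; filled points passed at an adjusted p under 0.05. The aminoacyl-tRNA synthetases lie mostly above 0, with a median of 0.09, and the ATF4 targets outside the module spread from -1.10 to 1.08.

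Genes of the same pathways outside the module gave mixed counts. Of 17 tested ATF4 targets that are not members, 4 rose and 4 fell, with a median log2 change of 0.05, so 47.1% were called, beside 22.9% of all genes. Gdf15, a stress hormone, had 6.24, 6.86 and 6.08 CPM in the KO libraries, against 4.08, 2.73 and 2.25 CPM in the WT libraries and rose (log2 change 1.08 ± 0.20 (SE), adjusted p = 0.00323). Ddit4, an mTORC1 inhibitor also known as REDD1, was at 48.3 ± 2.67 CPM in KO and 32.9 ± 1.19 CPM in WT (SD, n = 3 each) and rose (log2 change 0.55 ± 0.06 (SE), adjusted p = 4.78e-05). Mthfd1l, a mitochondrial one-carbon enzyme, rose (log2 change 0.44 ± 0.06 (SE), adjusted p = 0.000565), while Jdp2, a repressor of the AP-1 family, fell (log2 change -0.22 ± 0.05 (SE), adjusted p = 0.00608). The counts were 6 and 3 without TMM and 5 and 1 in limma on log2(FPKM + 1) without a filter, and without WT replicate 1 they were 3 and 2. Of 10 amino acid transporters 2 rose and 2 fell, so 40.0% were called. Slc1a4 (log2 change 0.29 ± 0.05 (SE), adjusted p = 0.00312) and Slc7a1 (log2 change 0.25 ± 0.05 (SE), adjusted p = 0.00358), carriers of neutral and of cationic amino acids, rose, and the glutamine carriers Slc1a5 (log2 change -0.47 ± 0.04 (SE), adjusted p = 1e-05) and Slc38a2 (log2 change -0.26 ± 0.03 (SE), adjusted p = 0.000115) fell. The ATF4 targets outside the module were thus called in both directions.

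The cytosolic aminoacyl-tRNA synthetases charge tRNAs with amino acids, and many are ATF4 targets. Of 20, 5 rose and 1 fell, 19 had a log2 change above 0, and the median was 0.09. That is 30.0% called, beside 22.9% of all genes, of which 11.2% rose and 11.7% fell. For 14 of 20 all KO libraries were above all WT libraries, beside 19.2% of all genes. Farsb, a subunit of the phenylalanine enzyme, had 55.0, 56.4 and 56.3 CPM in the KO libraries, against 40.5, 46.3 and 41.1 CPM in the WT libraries and rose (log2 change 0.39 ± 0.06 (SE), adjusted p = 0.000565). Cars1, Nars1 and Iars1, for cysteine, asparagine and isoleucine, rose at log2 changes of 0.29, 0.17 and 0.19. The count depended on the processing: 14 rose and none fell without TMM. DESeq2 called 8 higher and 1 lower, while edgeR with the DESeq2 size factors called 5 higher and 1 lower. Without WT replicate 1 or WT replicate 2 none fell. Another list had 13 genes: the other eIF2α kinases, phosphatases, the eIF2B complex, eIF2α itself and regulators of GCN2. Of these, 4 rose and 1 fell, with a median of 0.06, so 38.5% were called, beside 22.9% of all genes. No gene for those kinases or phosphatases passed the test. Eif2b5, the catalytic subunit of eIF2B, rose (log2 change 0.25 ± 0.04 (SE), adjusted p = 0.00168), as did Eif2s1, which encodes eIF2α itself (log2 change 0.17 ± 0.05 (SE), adjusted p = 0.0206), and Impact, an inhibitor of GCN2 (log2 change 0.15 ± 0.04 (SE), adjusted p = 0.0159), while Gcn1, the activator of GCN2, fell (log2 change -0.10 ± 0.03 (SE), adjusted p = 0.0321). Without KO replicate 1, KO replicate 3, WT replicate 2 or WT replicate 3, 1 gene of that list rose and none fell. The call of Gcn1 was kept under 2 of 14 alternatives.

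Folding enzymes and cochaperones outside the module were called in both directions. Of 16, 2 rose and 6 fell, beside 11.2% of all genes that rose and 11.7% that fell. The median log2 change was -0.06, and their summed level was 3521 to 3582 CPM in KO and 3816 to 3852 CPM in WT. P4hb, a disulfide isomerase and subunit of the collagen prolyl hydroxylase, had 1273, 1271 and 1283 CPM in the KO libraries, against 1434, 1430 and 1428 CPM in the WT libraries and fell (log2 change -0.17 ± 0.02 (SE), adjusted p = 6.94e-05). Ppib, or cyclophilin B, which speeds collagen folding, had 293, 312 and 310.1 CPM in the KO libraries, against 367, 370.1 and 351 CPM in the WT libraries and fell (log2 change -0.25 ± 0.03 (SE), adjusted p = 0.000278). Txndc5, a thioredoxin-domain isomerase, also fell (log2 change -0.17 ± 0.03 (SE), adjusted p = 0.000638), and Dnajc10, a reductase that aids disposal, rose (log2 change 0.20 ± 0.03 (SE), adjusted p = 0.00027). P4hb, Ppib and Txndc5 were lower in KO beside type I collagen, while Dnajc10 was higher. Col1a1 was at 23040 ± 672 CPM in KO and 31680 ± 674 CPM in WT (SD, n = 3 each). Col1a2 was at 20300 ± 567 CPM in KO and 28890 ± 354 CPM in WT. A link between these genes and collagen was not tested. Without TMM 3 of this list rose and 4 fell, with a median of -0.01, and in the limma fits the median was -0.01 to -0.00. Of 14 other ERAD genes none was called by edgeR, 1 was higher and 1 lower at an unadjusted p under 0.05, and DESeq2 called 0 higher and 1 lower. Os9, Ufd1, Vcp and Edem2 were at -0.08, 0.10, 0.05 and 0.14. Of 10 other sensors and signal genes none rose and 3 fell, so 30.0% were called, beside 22.9% of all genes. They were Creb3l1 (log2 change -0.32 ± 0.04 (SE), adjusted p = 0.000175), known as OASIS, an ER-bound factor for collagen secretion in osteoblasts, its relative Creb3l2 (log2 change -0.20 ± 0.03 (SE), adjusted p = 0.00158), and Mbtps1 (log2 change -0.22 ± 0.03 (SE), adjusted p = 0.000147), the protease that cuts ATF6. Map3k5, a kinase downstream of IRE1, was at 0.39 and did not pass (adjusted p = 0.105).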

How the data were processed

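The authors sequenced poly(A) RNA and deposited 1 table with, for each gene and library, a count and an FPKM value, per the file headers. The counts are whole numbers. FPKM, as deposited by the authors, is a value scaled to transcript length and library total. The submitters' processing notes name cutadapt 1.9, HISAT2 2.0.4 and StringTie 1.3.4d and a human build. All identifiers are of mouse and 1.81% of 27342 shared identifiers had GENCODE M21 coordinates, so no coordinates of the table are given. Use of strand and treatment of reads that fit several genes are not given in the sources used here.

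Counts were tested with edgeR 4.0.16 (TMM, filterByExpr, quasi-likelihood test) in R 4.3.3, KO against WT without covariates, over 18221 genes. Alternatives were DESeq2 1.42.0 (also its size factors in edgeR), no TMM, no count filter, limma 3.58.1 on log2(FPKM + 1) and log2(FPKM + 0.1) for genes averaging 1 FPKM or more, or for all genes, a replicate block, and leaving out each library. The common biological coefficient of variation was 12.6%. Intervals are at 95% and cover the spread between these libraries and counting error only. No 2 replicates were alike within counting noise. The procedure was tested on simulated data. Named genes are all members, Stk38, up to 4 genes of lowest p per related list and the 2 most abundant per marker list. The marker genes Dcstamp, Calcr, Tie1 and Emcn were not analysed here. The members and lists were chosen with earlier results of these data known.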

Additional observations from a re-analysis of the deposited data

How the results depend on the processing

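Over the 14 alternatives run, 25 of 34 members stayed on the same side of the threshold under each in which they were tested (Trib3 in 12, the others in 14) and none that was called reversed. The ATF4-type genes that rose, 7 in all, were 11 on library totals without TMM, 10 in the filtered limma fits and 5 to 8 when 1 library was left out, and none fell. Without TMM, Atf4 (adjusted p = 0.0446), Phgdh, Psph and Shmt2 were added. ER folding genes that rose were 3 without TMM, 3 in each filtered limma fit and 2 in limma without a filter, and those that fell were 0 in these fits and without a count filter, and 0 to 1 when 1 library was left out. The near-zero changes of Hspa5, Hsp90b1, Calr, Dnajc3 and Atf6 had either sign, uncalled, and that of Pdia3 ran from -0.06 to -0.00. Over all genes, 2048 rose and 2131 fell. The genes that fell were 1267 and 1254 in the filtered limma fits and 1246 without a filter, where 64.4%, 64.5% and 62.3% of calls were higher. The median log2 change of all genes was 0.05 without TMM and in limma on log2(FPKM + 0.1), 0.04 and 0.03 in limma on log2(FPKM + 1) with and without the filter, and at most 0.01 elsewhere. The cause of these differences was not tested. With a replicate block, 7 ATF4-type genes rose, 1 folding gene rose and 1 fell, 1 sensor fell, and 1912 genes rose and 1976 fell. Same-numbered libraries did not deviate together (r = -0.04, -0.03 and -0.01). The labels do not say whether the numbers pair libraries, and no call is judged by the fit with a replicate block. With 3 libraries a genotype, a change as small as that of Atf4 lies within the error, and Trib3, Chac1 and Atf3, at few CPM, have the widest errors.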

Other observations

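Heat shock genes of the cytosol answer to unfolded protein outside the ER. The list taken for them, which also held Hspd1 and Hspe1 of mitochondria, moved little. Of 12 tested, none rose and 1 fell, with a median log2 change of -0.01 and a range of -0.17 to 0.09, beside 22.9% of all genes called. At an unadjusted p under 0.05 the counts were 2 and 1, and DESeq2 called 0 higher and 1 lower. Dnaja1, a cytosolic HSP40 cochaperone, had 132, 146 and 139 CPM in the KO libraries, against 160.3, 152 and 156 CPM in the WT libraries (log2 change -0.17 ± 0.04 (SE), adjusted p = 0.011), and its call was kept under 9 of 14 alternatives. Hsph1, Hsp90aa1 and Hsp90ab1 were at log2 changes of 0.09, 0.07 and -0.04 and did not pass. Without TMM 2 genes of the list rose and none fell, and without WT replicate 1 none was called.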
